A study of Mus musculus with 335 samples.

Results

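The tumours described here were primary mammary tumours grown from 2 mouse mammary cancer cell lines, 4T07 and 67NR. They comprise 12 of the 335 libraries of the series, 6 tumours of each line, chosen by their titles. All were allografts made by orthotopic injection, which places cells in the mammary fat pad, and their strain is given as BALB. The oncogenic driver of both lines is given as unknown, every sample was untreated, and the age of the mice is not given in the sources used here. Each tumour came from a mouse with its own number. Each group stands for 1 cell line, so a difference between the groups belongs to these lines and not to a class of tumours. Cultured cells of the same lines, also untreated, served as a reference free of host tissue. They comprise 8 libraries, 4 per line, in a series labelled AS and a series labelled isolation with 2 libraries of each line in each.

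The lines are sisters, derived from a single mammary tumour of a BALB/c mouse. In the standard description of this model, 67NR grows at the injection site and does not spread, whereas 4T07 leaves the primary tumour and reaches distant organs but rarely grows into visible nodules there. The comparison therefore asks how the primary tumours of a line that disseminates differ from those of a line that does not. A bulk tumour library mixes RNA of the injected cells with RNA of host vessels, fibroblasts and blood cells, and for any marker fewer cells of a type and less RNA per cell cannot be told apart.

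Expression is given as RPKM, a read count divided by the length of the transcript and by the depth of the library, and differences are 4T07 minus 67NR on the log2(RPKM + 1) scale with their standard error (SE). That scale understates the difference for genes of low level. The tumours had 22842779 to 33261242 counted reads each, with a median of 24667467 in 4T07 and 29102757 in 67NR. 3 libraries stood apart in host tissue. The summed level of 24 measured genes of fibrillar collagens and matrix was 1541 RPKM in the 4T07 tumour of mouse 2 and 394 to 488 in the other 4T07 tumours. In 67NR it was 1065 in mouse 1 and 787 in mouse 2, and 149 to 233 in the others. The same 3 tumours had the highest haemoglobin sums, with 1801 RPKM in the 4T07 tumour and 4041 and 3624 in the 67NR tumours, against 188 to 339.8 and 475 to 1420.1 in the remaining tumours. They are called the collagen-rich tumours below, and values without them stand beside several results. They were singled out by the sums of these genes after the data were seen. Library numbers in the titles run in separate blocks for the lines, so an effect of processing order and of the line cannot be told apart.

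Of 11090 genes tested with limma, 7181 (64.8%) differed between the 4T07 and 67NR tumours at an adjusted p under 0.05. In the 4T07 tumours 3268 genes (29.5%) were higher and 3913 (35.3%) lower. The median difference over all tested genes was -0.04. At least 2-fold differences were found for 937 genes higher and 919 lower in 4T07, and at least 8-fold differences for 95 and 58. For 4534 genes (40.9%) the 6 tumours of one line did not overlap with the 6 of the other. When each library was rescaled by its median ratio to a common reference, the split of the calls became 3725 higher and 3545 lower.

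The genes with the largest excess in 4T07 tumours were epithelial and secreted products. Lgals7, a galectin of stratified epithelia, ranged from 198 to 343 RPKM in 4T07 with a median of 281, and from 0.0365 to 0.429 in 67NR with a median of 0.239. The difference was 7.78 ± 0.12 (SE, n = 6 and 6) with a limma adjusted p of 7.97e-15. Wfdc2, a secreted whey acidic protein family member, had 197 ± 34.4 RPKM (SD, n = 6) in 4T07 and 0.0681 ± 0.114 in 67NR. Slpi, an inhibitor of leukocyte proteases, had 759 ± 289 RPKM against 7.57 ± 8.29. Tslp, a cytokine of epithelia that acts on dendritic cells, ranged from 78.1 to 575 RPKM in 4T07 with a median of 253, whereas no 67NR tumour exceeded 1.01. Clu, the secreted chaperone clusterin, had 172 ± 27.3 against 2.57 ± 0.511 RPKM, and Serpine2, an inhibitor of thrombin and plasminogen activators, 196 ± 65.4 against 3.80 ± 2.33.

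The remaining genes among the 15 with the largest excess were the keratins Krt8 and Krt18, Amigo2, Padi4, Tns4, Cdon, Osr1, Sncg and Scara5. Their differences lay between 4.74 ± 0.18 for Scara5, a ferritin receptor, and 6.54 ± 0.17 for Krt8. Padi4, an enzyme that converts arginine to citrulline in histones, ranged from 63.2 to 82.8 RPKM in 4T07 and stayed at or below 0.165 in 67NR. Cdon, a co-receptor of hedgehog signalling, had 58.9 ± 18.1 RPKM in 4T07 tumours and 0.720 ± 0.0842 in 67NR tumours.

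The largest excesses in 67NR tumours included mesenchymal genes and ligands of the EGF receptor family. Cdh2, which encodes N-cadherin, ranged from 20.9 to 27.2 RPKM in 67NR with a median of 23.2, and from 0.0118 to 0.422 in 4T07 with a median of 0.0640. The difference was -4.47 ± 0.09 with a limma adjusted p of 1.83e-13. Pdpn, the membrane mucin podoplanin, had 366 ± 90.4 RPKM in 67NR and 6.90 ± 6.75 in 4T07. The EGF receptor ligands Ereg and Btc had 38.3 ± 16.5 and 36.7 ± 20.4 RPKM in 67NR against 0.162 ± 0.237 and 0.178 ± 0.105 in 4T07. Cox7b2, a paralogue of a cytochrome oxidase subunit, had a median of 0 RPKM in the 4T07 tumours and ranged from 70.5 to 124 in 67NR.

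Lyz1 had 249.7 ± 135 RPKM in 67NR and 6.73 ± 6.81 in 4T07, but it is nearly identical to the macrophage gene Lyz2 and its count is uncertain where reads were divided between them. It was also the single gene of these 30 without expression in either cultured line, at 0.0443 RPKM in 4T07 and 0.0737 in 67NR. The other 9 of the 15 genes lowest in 4T07 were Pnma5, Stac2, Epb4.1l3, Ric3, Twist1, Prrx1, Rundc3a, Pmp22 and Eda2r, with differences from -5.85 ± 0.09 for Pnma5 to -3.85 ± 0.11 for Eda2r. Eda2r, a receptor for ectodysplasin that p53 induces, had 14.2 ± 2.61 RPKM in 67NR and 0.0431 ± 0.0437 in 4T07.

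**Figure D1:**
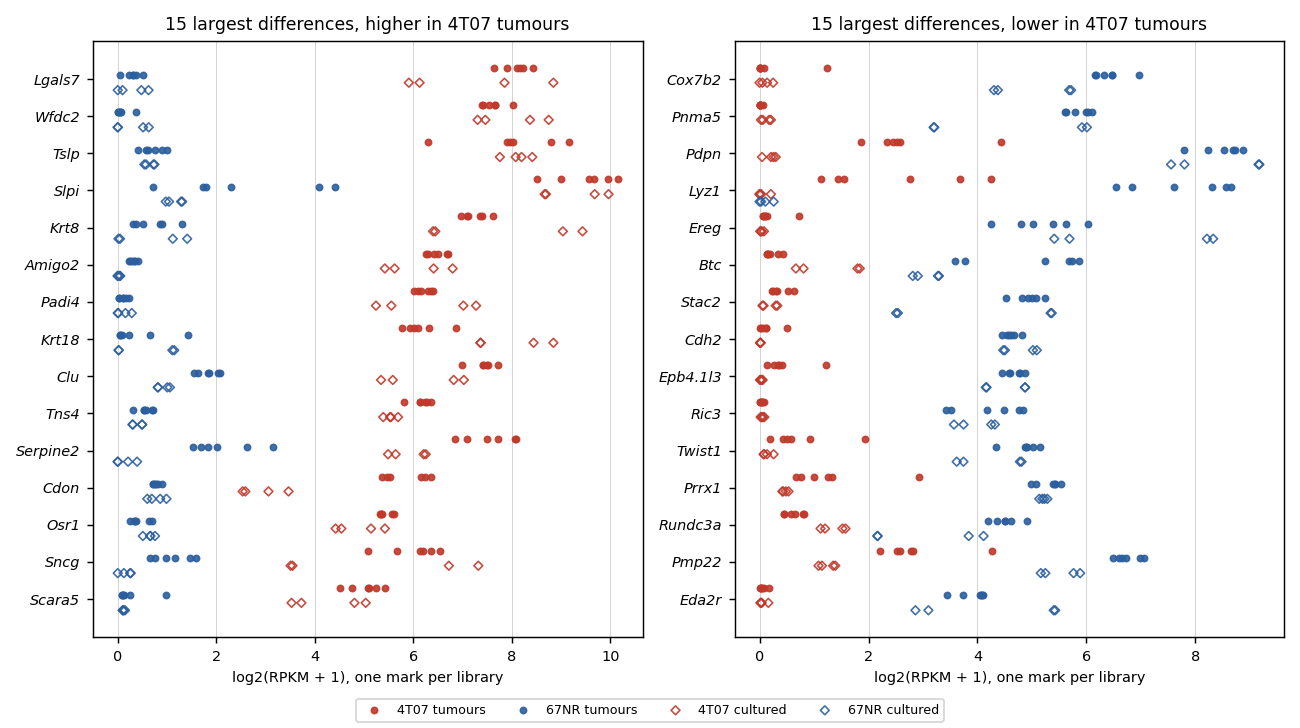
The 15 genes highest and the 15 lowest in 4T07 tumours relative to 67NR, on the log2(RPKM + 1) scale, with 1 mark per library: filled circles for tumours and open diamonds for cultured cells. In each panel the red 4T07 tumours and blue 67NR tumours are separate for every gene, and the cultured libraries lie on the same side as the tumours of their line except for Lyz1, which is near 0 in all cultures.

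Most of the tumour differences were also present in culture. Between the cultured lines 5954 of 10498 tested genes (56.7%) differed in a limma fit with the culture series as a term, 3167 (30.2%) higher and 2787 (26.5%) lower in 4T07. The tumours and cultures share no libraries. Of the 1856 genes that differed at least 2-fold between the tumours, 1464 were tested in culture. Of those, 1279 (87.4%) differed there in the same direction, 31 in the opposite direction and 154 did not pass the test. Conversely, 1872 genes differed at least 2-fold in culture and were tested in the tumours, of which 1654 (88.4%) differed the same way there. The number of calls in culture was 2651 without the series term, since AS and isolation cultures of a line differed widely.

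A direct test of the change, the tumour difference minus the cultured difference, was called for 1967 of 11801 genes (16.7%), 606 (5.14%) above 0 and 1361 (11.5%) below 0. Rescaling by the median ratio changed this split to 802 and 1123. The fit of this change had no term for the culture series, so the gap between AS and isolation cultures counted as spread between libraries. With the AS cultures alone as the reference 4855 genes were called, and with the isolation cultures alone 3060. Host genes that cultures lack enter this test as well. Tumour and culture RNA were also extracted by different steps, with a column kit for tumours and ethanol washes for cells, and the part of extraction in these calls was not tested.

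**Figure D2:**
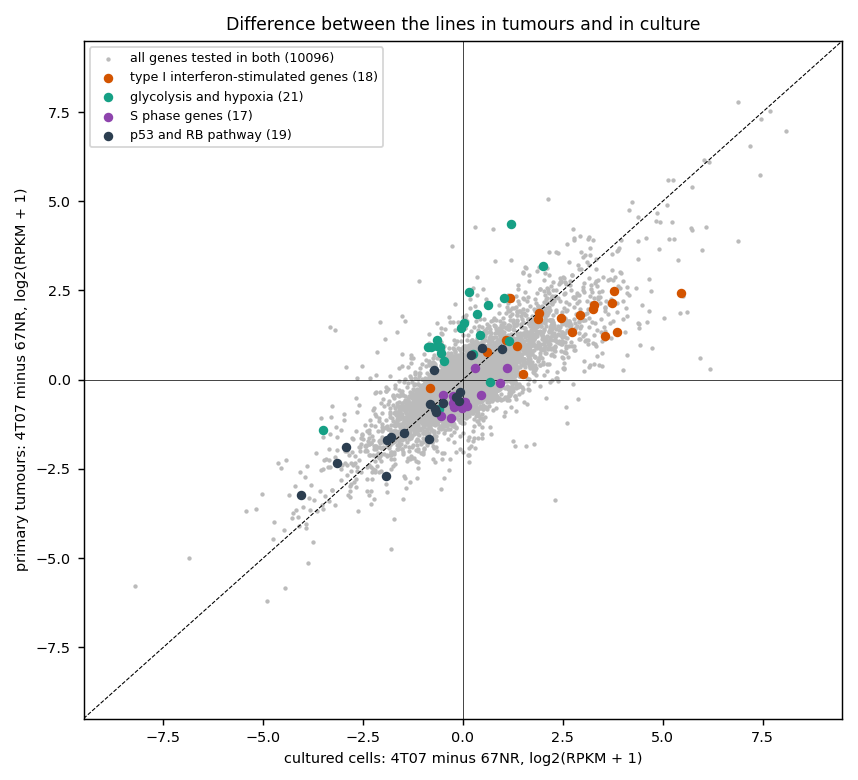
Difference between the lines in cultured cells (horizontal axis) and in primary tumours (vertical axis), 4T07 minus 67NR on the log2(RPKM + 1) scale, for genes tested in both, with 4 gene lists in colour and the line of equal difference dashed. Glycolysis and hypoxia genes lie mostly above the dashed line, whereas type I interferon-stimulated genes lie mostly to its right with positive differences on both axes, except Ifit2, which is below 0 on both.

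Few epithelial markers were expressed in either line, and over the whole list more were called higher than lower in 4T07. Of 20 listed genes of epithelial junctions and their regulators, 17 did not reach 1 RPKM in 6 tumours, and the remaining 3 were higher in 4T07. They were Cdh1 (E-cadherin) with 5.50 ± 1.28 against 0.177 ± 0.108 RPKM, the protease inhibitor gene Spint2 with 42.0 ± 5.50 against 0.690 ± 0.316, and the desmosomal gene Pkp3 with 10.9 ± 2.20 against 2.72 ± 0.397. Cdh1 and Spint2 reached 1 RPKM through the 4T07 tumours alone. Without the filter 9 of the 20 were higher and 2 lower, with a median difference of 0.12. Over all 17747 genes without the filter, 3867 were higher and 5231 lower. Grhl2, a transcription factor of epithelial junctions named after its values were seen, went the other way at low level, with 0.00881 to 0.0849 RPKM in 4T07 and 0.696 to 2.18 in 67NR (exact permutation p = 0.00216, two-sided, the smallest that 6 against 6 tumours allow). The other defining markers stayed low in both lines: the highest tumour value was 1.25 RPKM for Epcam, 0.225 for Cldn3 and 0.729 for Cldn4. They differed by 0.50, 0.05 and 0.21 (exact permutation p = 0.0108, 0.442 and 0.106, two-sided). The luminal keratins Krt8 and Krt18 followed Cdh1, with Krt8 at 124 to 194 RPKM in 4T07 and 0.245 to 1.47 in 67NR, and Krt18 at 53.7 to 116 against 0.0375 to 1.67. They were the 2 higher genes among 3 tested of 11 listed keratins. Krt19 and Krt7 did not reach the filter and differed by 0.23 and 0.13 (exact permutation p = 0.582 and 0.416, two-sided). The basal keratin Krt5 did not exceed 0.278 RPKM in any of the 12 tumours.

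Transcription factors of the epithelial-mesenchymal transition, a programme in which epithelial cells lose junctions and gain motility, divided between the lines. Of 10 listed factors 9 were tested, and 5 were lower and 3 higher in 4T07 tumours. Twist1 ranged from 19.4 to 34.7 RPKM in 67NR and from 0.141 to 2.85 in 4T07, a difference of -4.10 ± 0.25. Zeb1 differed by -3.10 ± 0.13 (0.754 ± 0.436 against 13.7 ± 1.10 RPKM), Prrx1 by -3.98 ± 0.32, Snai2 by -2.10 ± 0.15 and Twist2 by -1.86 ± 0.11. Foxc1 went the other way, with 36.7 ± 5.06 RPKM in 4T07 and 3.22 ± 0.628 in 67NR, and so did Snai1, with 24.4 ± 4.85 against 9.21 ± 2.81. None of these 7 factors overlapped between the lines. In culture the list had a similar median difference, -1.91 against -1.86 in the tumours.

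Mesenchymal surface and cytoskeletal genes were mostly lower in 4T07, with 7 of 12 tested lower and 1 higher. S100a4, a calcium-binding protein linked to motility, had 527 ± 202 RPKM in 4T07 and 5206 ± 1306 in 67NR, a difference of -3.36 ± 0.24. In culture the gap was smaller, with 1711 against 4976 RPKM, and the tumour difference exceeded it by -1.84 (limma adjusted p = 0.022), which no longer passed without the collagen-rich tumours (-1.86, adjusted p = 0.0503). Vim, encoding vimentin, remained abundant in both lines, with 1022 ± 123 RPKM in 4T07 and 1467 ± 176 in 67NR. Fn1, encoding fibronectin, was the exception, with 687 ± 200 RPKM in 4T07 against 205 ± 42.4.

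Type I interferon-stimulated genes are switched on when cells sense interferon-alpha or beta, and many encode antiviral proteins. All 27 listed genes were tested in the tumours, 24 were higher in 4T07 and 0 lower, with a median difference of 1.48. Isg15, a ubiquitin-like modifier, ranged from 31.7 to 63.3 RPKM in 4T07 with a median of 38.9, and from 4.98 to 9.63 in 67NR with a median of 7.13. The difference was 2.44 ± 0.19 with a limma adjusted p of 1.32e-07. Bst2 (tetherin, which holds virus particles at the cell surface) had 136 ± 21.2 against 37.8 ± 5.80 RPKM, Ifit1 12.5 ± 3.19 against 2.11 ± 0.452, and Irf9, the DNA-binding subunit of the interferon-activated complex, 20.4 ± 3.28 against 5.40 ± 0.794. The lines did not overlap for 23 of the 27 genes. Ifit2 was an exception, with 9.53 ± 2.06 RPKM in 4T07 and 11.4 ± 2.95 in 67NR (-0.22 ± 0.17, adjusted p = 0.263). Without the collagen-rich tumours Ifit2 was called lower (-0.36, limma adjusted p = 0.0402), so 24 genes were higher and 1 lower.

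The same direction was present without host cells. In culture 13 of 18 tested genes were higher in 4T07 and 1 lower, with a median difference of 2.59. Cultured 4T07 cells had 179 and 191 RPKM of Isg15 in the AS series and 26.8 and 29.1 in the isolation series, whereas cultured 67NR cells had at most 1.20. For Isg15 the tumour difference minus the cultured difference was -3.01 (limma adjusted p = 0.0029). For Irf9, Bst2, Ddx60 and Ifit3 no such change passed the test, and its sign differed between the AS and isolation references.

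The promoters of interferon-stimulated genes carry a repeated element to which interferon-activated factors bind. The letters GAAA followed by any 2 bases and a second GAAA were searched on both strands in the 250 bases before each listed start in RefSeq sequences of build GRCm38.p6. Of the 20 type I genes with a listed start 9 held the motif (45.0%), and of 12 interferon-gamma genes 7 did (58.3%), compared with 3.32% of the 8319 tested genes with a listed start. The 150 bases before the start are printed for 3 type I genes to show its place. These were taken in order of falling difference among genes called higher, until 3 with a match in this stretch were found. Genes later in that order and genes not called higher were not considered for printing. Motif letters are in capitals on either strand, with overlapping matches merged. Isg15 is at chr4:156200819-156200968 on the minus strand, Ifit1 at chr19:34640739-34640888 on the plus strand and Bst2 at chr8:71537473-71537622 on the minus strand.
Isg15: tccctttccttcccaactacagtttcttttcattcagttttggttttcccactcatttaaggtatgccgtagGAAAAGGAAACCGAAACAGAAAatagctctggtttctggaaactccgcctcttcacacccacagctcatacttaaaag
Ifit1: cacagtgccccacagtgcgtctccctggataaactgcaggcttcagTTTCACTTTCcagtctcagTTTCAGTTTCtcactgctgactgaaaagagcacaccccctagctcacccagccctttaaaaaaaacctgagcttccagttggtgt
Bst2: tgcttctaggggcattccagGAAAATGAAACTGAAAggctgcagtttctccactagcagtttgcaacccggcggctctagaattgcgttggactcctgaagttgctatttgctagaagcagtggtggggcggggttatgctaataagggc

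Isg15 held 3 overlapping matches, the nearest ending 56 bases before the start, and Ifit1 and Bst2 held 2 each. These are matches of letters, and binding was not measured.

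Interferon-gamma induced genes and the machinery of antigen presentation were higher in 4T07 tumours as well. Of 18 tested interferon-gamma genes 17 were higher and 0 lower, with a median difference of 2.39. Psmb8, a subunit of the immunoproteasome that cuts peptides for presentation, ranged from 135 to 218 RPKM in 4T07 with a median of 178, and from 12.3 to 32.3 in 67NR with a median of 14.8. The difference was 3.35 ± 0.20 (adjusted p = 1.15e-08), and the cultured lines had 45.0 and 0.0919 RPKM. Psmb9 had 82.3 ± 18.6 against 11.7 ± 7.38 RPKM and the peptide transporter gene Tap1 45.6 ± 14.7 against 9.13 ± 5.25. The 67NR tumour of mouse 5 was the highest of its group for many of these genes. Its summed interferon-gamma list was 575 RPKM, against 123 to 191 in the other 67NR tumours and 704 to 1639.6 in 4T07. It also had 82.5 RPKM of the chemokine gene Cxcl9, above every 4T07 tumour (23.7 to 77.1). Cxcl9 was called at 2.09 ± 0.67 and not without the collagen-rich tumours (1.47, adjusted p = 0.088).

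All 12 tested genes of MHC class I presentation, which shows peptides to cytotoxic T cells, were higher in 4T07, with a median difference of 1.58 (1.39 in culture). The heavy chain genes H2-K1 and H2-D1 had 200.0 ± 29.8 and 818 ± 104 RPKM in 4T07 against 95.6 ± 19.0 and 420 ± 52.8 in 67NR. Beta-2-microglobulin, B2m, had 3054 ± 533 against 1913 ± 220. The class I genes are close paralogues, so their counts may be divided among them.

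MHC class II genes, which professional antigen-presenting cells use, were also higher in 4T07 tumours for all 7 tested, with a median of 1.91 that became 1.34 without the collagen-rich tumours. H2-Ab1 ranged from 58.2 to 211 RPKM in 4T07 with a median of 91.5, and from 5.26 to 102 in 67NR with a median of 26.0. The lines overlapped for this gene, as for 5 of the 7. H2-Ab1, H2-Aa and H2-Eb1 had at most 0.150 RPKM in the means of the cultured lines, so their transcripts were nearly absent from the injected cells in culture.

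Among immune regulators, the largest difference was in Nt5e (CD73, which makes adenosine), at 90.2 ± 16.3 RPKM in 4T07 tumours and 3.48 ± 1.94 in 67NR. Cd274, encoding the checkpoint ligand PD-L1, ranged from 17.4 to 33.2 RPKM in 4T07 with a median of 18.9, and from 1.89 to 6.16 in 67NR with a median of 2.39. The difference was 2.56 ± 0.22 (adjusted p = 3.42e-07). In culture Cd274 was at 1.90 and 1.28 RPKM and not called, and the tumour difference exceeded the cultured one by 2.32 (limma adjusted p = 0.0014). Cd80, a costimulatory ligand, was lower in 4T07 (0.751 ± 0.225 against 4.13 ± 0.940 RPKM). Of the 13 tested checkpoint genes 4 were higher and 3 lower in 4T07.

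**Figure D3:**
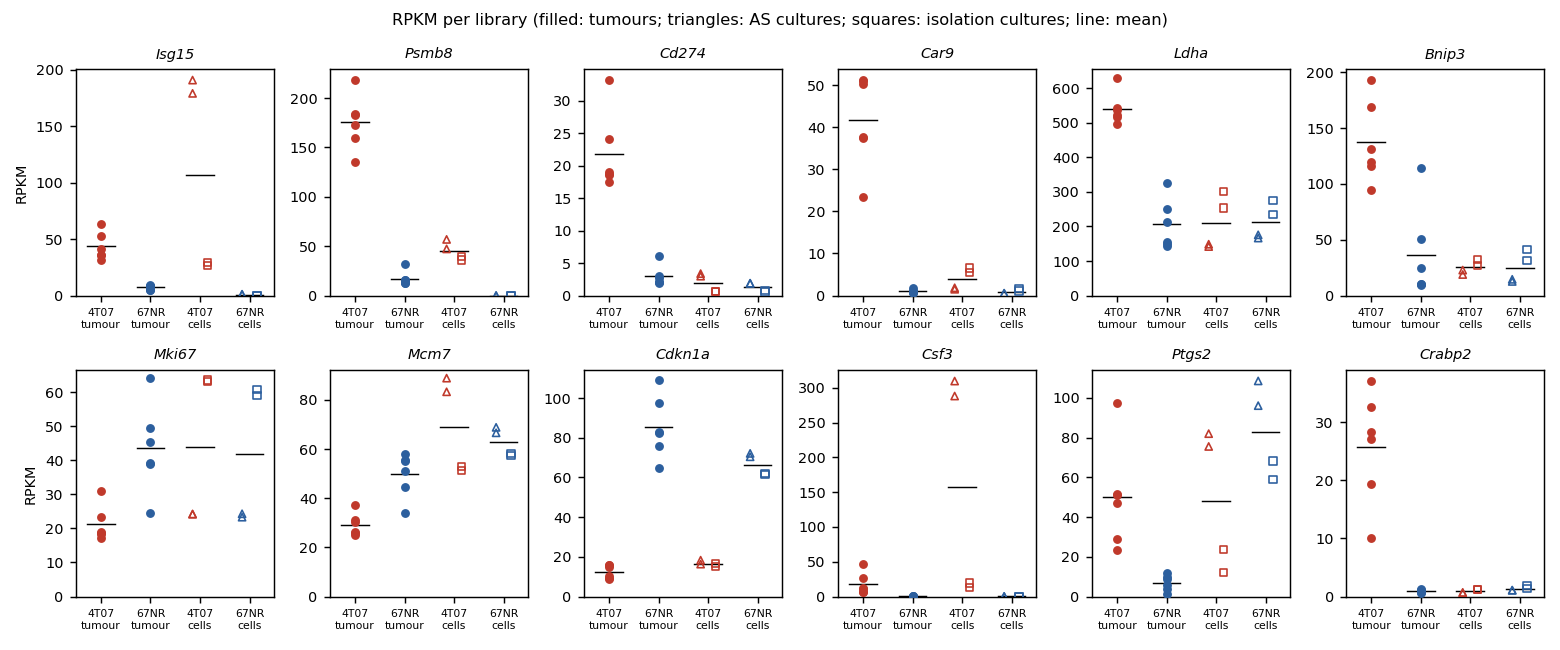
RPKM of 12 genes in every tumour and cultured library, with filled circles for tumours, triangles for AS cultures, squares for isolation cultures and lines for group means. Isg15, Psmb8 and Csf3 separate the lines in tumours and in culture, Cd274, Car9, Ldha, Bnip3 and Crabp2 are highest in 4T07 tumours, and Mki67 and Mcm7 are lower in 4T07 tumours but alike in mean between the cultures.

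Genes of glycolysis and the response to low oxygen were mostly higher in 4T07 tumours, with a median near 0 in culture. The hypoxia-inducible factors bind DNA when oxygen falls and raise glucose uptake, glycolysis and pH control. Of 21 tested genes 17 were higher and 1 lower in 4T07 tumours, with a median of 1.07, whereas in culture 8 were higher and 9 lower, with a median of 0.02. The tumour difference exceeded the cultured one for 10 genes and was below it for 0. Egln3 and Bnip3 were among the 10 and near the threshold. Against the isolation cultures alone neither was called (limma adjusted p = 0.0859 and 0.0605), against the AS cultures alone Bnip3 was not (adjusted p = 0.153), and leaving out a single library ended the call in 12 of 20 cases for Egln3 and 15 of 20 for Bnip3. Car9, a carbonic anhydrase of the cell surface, ranged from 23.3 to 51.2 RPKM in 4T07 with a median of 43.9, and from 0.557 to 1.89 in 67NR with a median of 0.969. The difference was 4.35 ± 0.19 in the tumours (adjusted p = 5.74e-10), where the lines did not overlap, and 1.19 in culture. The change of 3.16 between them had a limma adjusted p of 3.9e-05.

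Pdk1, which keeps pyruvate out of mitochondria, had 20.6 ± 3.05 RPKM in 4T07 tumours against 1.58 ± 1.28, and Hk2, the inducible hexokinase, 32.1 ± 3.86 against 6.07 ± 2.52. Egln3, an oxygen sensor that hypoxia itself induces, had 102 ± 27.1 against 23.3 ± 7.75. Ldha, lactate dehydrogenase A, was chosen after its values were seen: it had 541 ± 46.8 RPKM in 4T07 tumours and 207 ± 72.9 in 67NR, but 211 and 213 in the cultured lines. Hk1, the constitutive hexokinase, was lower in 4T07 (19.5 ± 2.19 against 35.2 ± 5.20). Bnip3, a mitophagy receptor also chosen after its values were seen, showed how the collagen-rich tumours bear on the list. It was at 94.5 to 193 RPKM in 4T07 and at 9.08 to 24.9 in the 67NR tumours of mice 3, 4, 5 and 7, but at 114 and 50.6 in mice 1 and 2. Its difference was 2.47 ± 0.55, and 3.24 without the collagen-rich tumours. Slc2a1, the glucose transporter GLUT1, was not called with all tumours (0.91 ± 0.40, adjusted p = 0.0651) and was called without these 3 (1.40, adjusted p = 0.00018). Without them 18 of the 21 genes were higher and 2 lower, with a median of 1.40.

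The core of the element bound by hypoxia-inducible factors, ACGTG, was searched on both strands in the same windows. It was present in 12 of 19 genes of the list with a start (63.2%) and in 25.4% of the tested genes, a common match for so short a motif. The 150 bases before the start of Car9 (chr4:43506876-43507025, plus strand, GRCm38.p6) and Hk2 (chr6:82774455-82774604, minus strand) show it in capitals, nearest at 13 bases before the start in Car9 and at 47 in Hk2.
Car9: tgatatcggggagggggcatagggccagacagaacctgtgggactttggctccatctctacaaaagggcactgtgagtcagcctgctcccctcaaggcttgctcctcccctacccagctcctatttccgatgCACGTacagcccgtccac
Hk2: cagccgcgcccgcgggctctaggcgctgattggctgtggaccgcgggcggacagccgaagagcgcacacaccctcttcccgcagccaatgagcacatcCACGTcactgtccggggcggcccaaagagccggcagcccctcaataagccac

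Genes of DNA replication were mostly lower in 4T07 tumours, and few of them passed the test in culture. Of 17 tested S phase genes 14 were lower and 1 higher, with a median of -0.64, whereas in culture 1 was lower and 2 higher, with a median of -0.02. Mcm7, a subunit of the replicative helicase, ranged from 25.0 to 37.2 RPKM in 4T07 with a median of 28.4, and from 33.8 to 58.0 in 67NR with a median of 53.1. The difference was -0.73 ± 0.13 (adjusted p = 0.00027), with overlap between the lines. The tumour difference minus the cultured one was called lower for 4 of the 17 genes, Mcm7 among them (-0.83), though not after rescaling by the median ratio (limma adjusted p = 0.0702). Mitosis genes were less uniform, with 8 of 19 lower and 2 higher in tumours, and 1 lower and 10 higher in culture. The proliferation marker Mki67 had 21.2 ± 5.20 RPKM in 4T07 and 43.6 ± 13.1 in 67NR tumours, and 43.8 and 41.9 in the cultured lines. Its tumour difference minus the cultured one did not pass the test. That change was called below 0 for 2 of the 19 mitosis genes and above 0 for 0, against 11.5% and 5.14% of all genes. Leaving out any single tumour gave between 5 and 13 lower mitosis genes and between 0 and 3 higher ones. Without the collagen-rich tumours 11 were lower and 0 higher.

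Genes of the p53 and RB pathways were also lower in 4T07, in tumours and in culture. Of 19 tested members 15 were lower and 3 higher in 4T07 tumours, with a median of -0.82. In culture 12 were lower and 2 higher, with a median of -0.73. Cdkn1a, the p53-induced inhibitor p21, ranged from 8.78 to 16.1 RPKM in 4T07 with a median of 12.7, and from 64.9 to 109 in 67NR with a median of 82.8. The difference was -2.69 ± 0.17 (adjusted p = 1.2e-08). Trp53 itself had 14.6 ± 1.66 against 46.2 ± 6.51 RPKM, and its targets Mdm2 and Ccng1 14.2 ± 0.521 and 14.9 ± 1.29 against 57.3 ± 16.7 and 80.6 ± 17.5. Cdkn2a, which encodes p16 and p19ARF and was chosen after its values were seen, was at 12.0 to 26.1 RPKM in 67NR and 0.364 to 1.81 in 4T07. In culture 67NR had 28.3 RPKM and 4T07 0.0284.

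**Figure D4:**
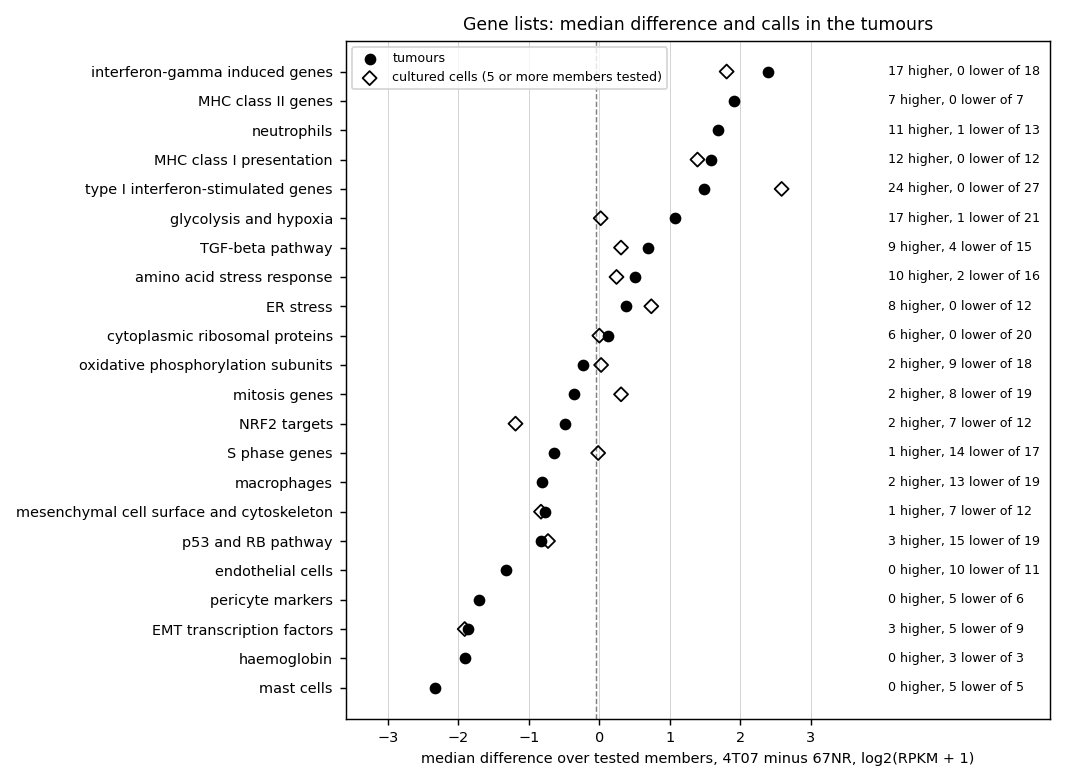
Median difference over the tested members of 22 gene lists, 4T07 minus 67NR on the log2(RPKM + 1) scale, for tumours (filled) and cultured cells (open, lists with 5 or more tested members), with the tumour calls at the right and the median of all tested genes dashed. Interferon-gamma induced genes are at the top with 2.39 and mast cell genes at the bottom with -2.33, and glycolysis and hypoxia genes have 1.07 in tumours and 0.02 in culture.

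Host cell markers showed more neutrophil and fewer macrophage transcripts in 4T07 tumours. Of 13 tested neutrophil genes 11 were higher and 1 lower, with a median of 1.68. The lines did not overlap for 5 of the 13, no larger a share than the 40.9% of all tested genes. The summed list was 233 to 1162 RPKM in 4T07 tumours and 33.8 to 487 in 67NR tumours. In culture it was 31.2 to 92.9 in 4T07 and 31.6 to 43.1 in 67NR, so the injected cells also expressed some of these genes. Ngp, a protein of neutrophil granules, ranged from 8.74 to 19.2 RPKM in 4T07 with a median of 11.0, and from 0 to 1.28 in 67NR with a median of 0.151. The difference was 3.32 ± 0.22 (adjusted p = 2.24e-08), and both cultured lines were at or below 0.00497 in the mean. S100a9, a calcium-binding protein abundant in neutrophils, had 254 ± 215 RPKM against 55.0 ± 73.3, with overlap, since the 67NR tumour of mouse 1 reached 191. Its difference of 2.95 ± 0.85 became 3.99 without the collagen-rich tumours. Cxcr2, the chemokine receptor of neutrophils, was the exception, at 4.62 ± 1.85 RPKM in 4T07 and 9.36 ± 3.22 in 67NR. The cultured lines expressed it too, at 9.03 and 23.3 RPKM. Csf3, the growth factor of the neutrophil lineage, had 5.86 to 46.6 RPKM in 4T07 tumours and at most 0.526 in 67NR. Its cultured values were 288 and 309.7 RPKM in AS and 12.8 and 19.5 in isolation cultures of 4T07, and at most 0.160 in 67NR.

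Macrophage genes were lower in 4T07 for 13 of 19 tested and higher for 2, with a median of -0.81. Csf1r, the receptor that macrophages need to survive, had 21.4 ± 5.75 RPKM in 4T07 and 61.3 ± 10.6 in 67NR, and Mrc1, the mannose receptor, 9.81 ± 6.70 against 74.8 ± 19.2. The lines did not overlap for either, and the cultured lines were near 0. Lyz2 had 714 ± 333 against 3115 ± 529 RPKM. Emr1, which encodes F4/80, differed less, with 9.74 ± 3.70 against 18.1 ± 4.37 and overlap. Arg1, the arginase of alternatively activated and suppressive myeloid cells, was 1 of the 2 higher genes. It ranged from 70.2 to 196 RPKM in 4T07, and in 67NR was at 65.8 and 56.8 in the collagen-rich tumours of mice 1 and 2 and at 0.786 to 2.47 in the other 4. The difference was 3.69 ± 0.91 with all tumours and 5.01 without the collagen-rich ones. The other was Mmp12, macrophage elastase, at 2.13 ± 0.82 (adjusted p = 0.0361), a call lost when any 1 of 7 tumours was left out (adjusted p = 0.0502 to 0.0817; mice 2, 3, 7 and 9 of 4T07 and 3, 4 and 7 of 67NR). Among chemokines for monocytes, Ccl2 had 41.7 ± 15.1 RPKM in 4T07 tumours and 133 ± 36.4 in 67NR.

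Mast cell, endothelial and pericyte markers were mostly lower in 4T07 tumours. All 5 tested mast cell genes were lower, with a median of -2.33. At such low 4T07 levels a gene can pass the filter through the 67NR tumours alone, so this count is partly set by the filter. Ms4a2, a mast cell gene below the filter, was at -0.32 (exact permutation p = 0.0584, two-sided). Cpa3, a protease of mast cell granules, ranged from 0.0964 to 1.78 RPKM in 4T07 and from 1.93 to 27.4 in 67NR. The 67NR tumours were heterogeneous, with summed mast cell levels of 76.5 to 133 RPKM in mice 3, 4 and 5 and 11.1 to 21.9 in mice 1, 2 and 7, against 0.500 to 10.6 in 4T07. Of 13 measured endothelial genes 11 were tested, and 10 were lower in 4T07 with a median of -1.32. The lines did not overlap for 2 of the 11, against 40.9% of all tested genes. Kdr, the VEGF receptor of endothelium, had 1.14 ± 0.551 against 3.89 ± 1.01 RPKM, and Cdh5, VE-cadherin, 5.35 ± 5.93 against 21.7 ± 8.03. Vwf, an endothelial gene below the filter, went the other way (0.26, exact permutation p = 0.0303, two-sided). Of 6 tested pericyte genes 5 were lower, among them Rgs5 with 2.19 ± 2.19 against 30.2 ± 15.4 RPKM. Rgs5 was reversed in culture, with 4.35 RPKM in 4T07 and 0.00820 in 67NR. The basement membrane collagen gene Col4a1 was lower as well, at 14.9 ± 11.7 against 63.6 ± 18.4 RPKM. All 3 haemoglobin genes were lower in 4T07.

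Lymphoid genes gave no common direction, with 3 of 14 tested T and NK cell genes higher and 3 lower. The killer cell protease gene Gzma ranged from 11.3 to 25.1 RPKM in 67NR with a median of 17.9, and from 0.615 to 2.12 in 4T07 with a median of 1.32, a difference of -2.97 ± 0.21 (adjusted p = 4.69e-08). Ncr1, a receptor of natural killer cells, had 0.643 ± 0.301 against 2.79 ± 1.18 RPKM. In contrast Cd3e, part of the T cell receptor complex, had 3.60 ± 2.15 in 4T07 and 1.96 ± 1.51 in 67NR and was not called (0.67 ± 0.33, adjusted p = 0.0922).

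**Figure D5:**
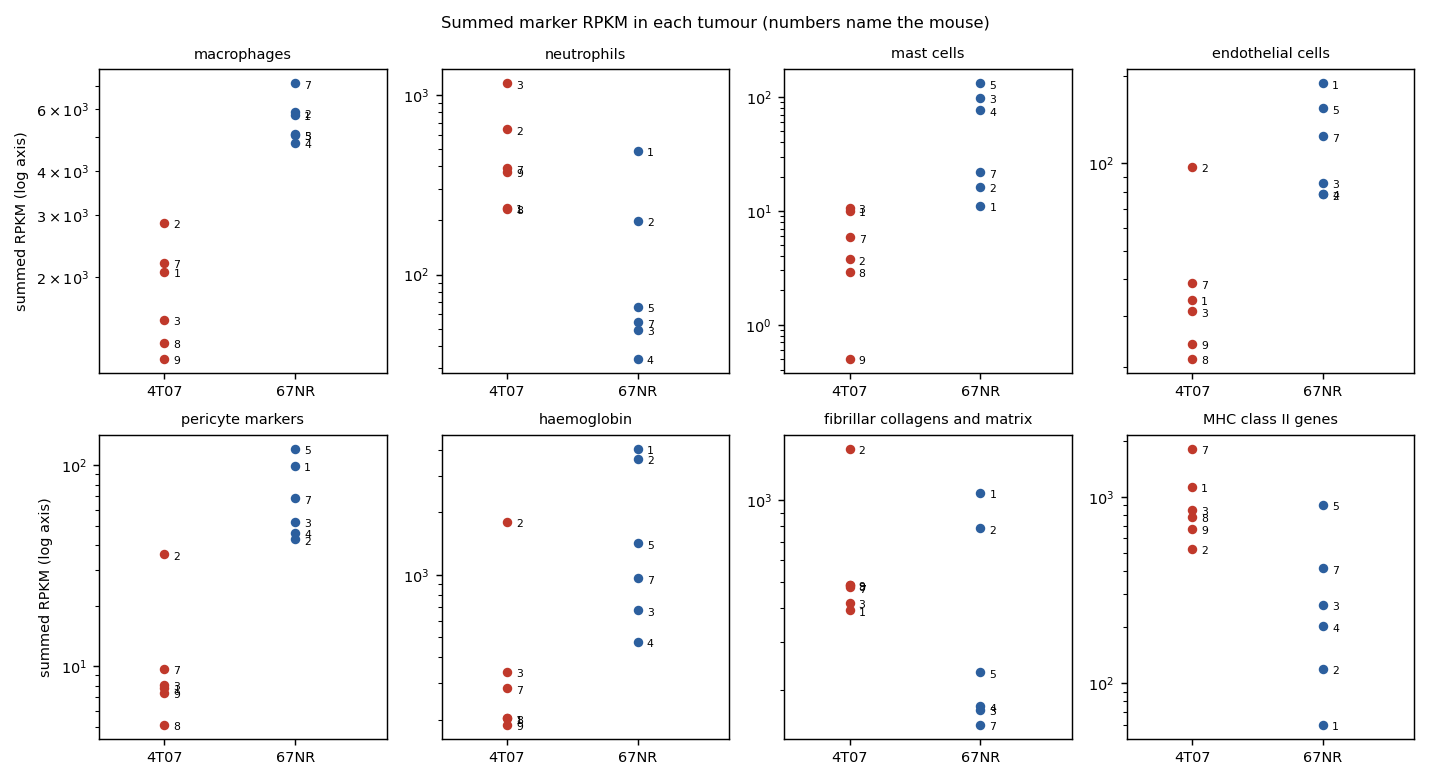
Summed RPKM of the listed marker genes in each tumour on log axes, with 1 panel per list, 4T07 tumours in red, 67NR tumours in blue and the mouse number beside each point. Macrophage, mast cell and pericyte sums are lower in every 4T07 tumour than in any 67NR tumour, and mouse 2 of 4T07 with mice 1 and 2 of 67NR lead the collagen and haemoglobin panels.

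Matrix genes varied widely among the tumours of each line. Of 22 tested fibrillar collagen and matrix genes 4 were higher and 2 lower in 4T07, with a median of 0.32. The median depended on single tumours, at -0.06 without the 4T07 tumour of mouse 2, 0.08 without the 67NR tumour of mouse 7 and 0.73 without that of mouse 1. The 3 collagen-rich tumours were chosen by the sum of these same genes, so values without them are not given for this list. Col1a1 ranged from 7.58 to 218 RPKM in 4T07 with a median of 30.0, and from 2.19 to 109.9 in 67NR with a median of 9.99. Its difference of 0.95 ± 0.94 was not called (adjusted p = 0.392). Both cultured lines had at most 0.0660 RPKM of Col1a1 in the mean. Dcn, the proteoglycan decorin of fibroblasts, had 151 ± 115 against 42.0 ± 54.5 RPKM, a difference of 2.42 ± 0.72.

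A laminin chain and 2 integrin subunits of laminin receptors were higher in 4T07. Lama5, the laminin chain, had 41.9 ± 3.71 against 3.12 ± 0.593 RPKM, and the integrin subunits Itgb4 and Itga3 17.5 ± 1.64 and 72.7 ± 6.35 against 0.548 ± 0.153 and 19.8 ± 1.63. None of these 3 overlapped, and all were higher in cultured 4T07 too. Over the whole lists the directions were mixed, with 5 of 12 tested basement membrane genes higher and 5 lower, and 4 of 14 integrins higher and 5 lower.

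Of the secreted signalling pathways, Wnt genes had 8 of 10 tested higher in 4T07 tumours and 1 lower. The other 16 of the 26 listed did not reach 1 RPKM in 6 tumours, and without this filter 9 of 26 were higher and 3 lower, with a median of 0.12. The ligand gene Wnt7b had 61.5 ± 16.9 against 1.98 ± 1.03 RPKM, and Notum, a secreted inhibitor that Wnt signalling induces, 33.3 ± 11.3 against 1.85 ± 0.574. Fzd1, a receptor, was the lower gene (1.28 ± 0.896 against 3.33 ± 0.477). In the TGF-beta pathway 9 of 15 tested genes were higher and 4 lower. The ligand genes Tgfb1 and Tgfb3 had 24.8 ± 2.18 and 18.3 ± 4.99 RPKM in 4T07 and 15.1 ± 2.59 and 5.99 ± 0.967 in 67NR, Skil, a feedback inhibitor that the pathway induces, 20.8 ± 1.25 against 8.32 ± 1.37, and Tgfbr3, the co-receptor betaglycan, 4.27 ± 1.03 against 10.5 ± 1.60. Ctgf, a matricellular target of YAP and TGF-beta, had 166 ± 78.2 against 11.5 ± 14.1 RPKM. Growth factor receptors were mixed, with 7 of 21 tested receptor tyrosine kinase and ligand genes higher and 10 lower. Fgfr1 had 4.12 ± 2.17 RPKM in 4T07 and 41.3 ± 7.08 in 67NR, and Tgfa 5.06 ± 2.22 against 0.0815 ± 0.0161.

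Stress and metabolic lists differed less. NRF2 targets, which handle oxidants, were lower for 7 of 12 tested and higher for 2, with the glutathione transferase gene Gstm1 at 10.3 ± 2.79 against 62.3 ± 9.60 RPKM. ER stress genes were higher for 8 of 12 and lower for 0, with the chaperone gene Hspa5 at 686 ± 52.0 against 214 ± 26.5 RPKM. Cholesterol synthesis genes were higher for 11 of 18 and lower for 1, Dhcr7, which had 3.76 ± 0.791 against 14.0 ± 4.49. Oxidative phosphorylation subunits were lower for 9 of 18 and higher for 2, among them Atp5b with 211 ± 14.4 against 433 ± 18.4 RPKM. Of cytoplasmic ribosomal protein genes 6 of 20 were higher and 0 lower, none by 2-fold. Hprt, often used as a reference gene, was itself lower in 4T07, with 43.0 ± 4.17 against 72.2 ± 10.6 RPKM (-0.73 ± 0.10).

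Genes reported in other work to promote or suppress metastasis did not sort by line. Of 21 tested promoters 5 were higher and 8 lower in 4T07 tumours, and of 15 tested suppressors 4 were higher and 6 lower. Lcn2, a secreted iron carrier, had 59.8 ± 35.6 against 8.61 ± 7.04 RPKM, and L1cam, an adhesion molecule, 0.278 ± 0.0858 against 2.81 ± 0.733. Ptgs2, the inducible cyclooxygenase, was higher in 4T07 tumours and not in cultured 4T07 cells. It was at 23.3 to 97.2 RPKM in 4T07 tumours and 1.23 to 12.0 in 67NR tumours, without overlap, but at 48.3 and 83.0 RPKM in the cultured lines. The tumour difference was 2.76 ± 0.44 and the cultured one -1.11, which was not called without the series term (limma adjusted p = 0.234) or when either 67NR isolation library was left out (adjusted p = 0.0523 and 0.0525). The change between them had a limma adjusted p of 0.0014. Gas1, a growth arrest gene among the suppressors, had 1.81 ± 1.68 RPKM in 4T07 and 28.8 ± 10.3 in 67NR, and Timp3, an inhibitor of metalloproteinases, 64.2 ± 20.3 against 11.0 ± 5.99.

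Retinoid binding proteins, which carry vitamin A and its acid, contained the gene with the largest rise of the tumour difference over the cultured one among the genes named here. Crabp2 ranged from 10.0 to 37.1 RPKM in 4T07 tumours with a median of 27.7, and from 0.570 to 1.22 in 67NR with a median of 0.844, but was at 0.943 and 1.37 in the cultured lines. Its difference was 3.74 ± 0.25 in tumours and -0.29 in culture, with a change of 4.02 (limma adjusted p = 4.5e-07). Of 5 tested genes of the list 3 were higher and 1 lower, and without the collagen-rich tumours 4 and 1. Hox genes, which record position along the body axis, had no common direction. Of the 7 tested 6 were higher in 4T07 and 1 lower, Hoxb4, but genes such as Hoxa10 passed the filter through 1 line alone. Without the filter 7 of 27 were higher and 9 lower, with a median of -0.07. Hoxa10 was at 6.41 ± 0.945 against 0.0925 ± 0.0937 RPKM.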

How the data were processed

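RNA of snap-frozen tumours and cultured cells was sequenced on a HiSeq2500, per the labels' protocols. Reads were processed with TopHat, DESeq2 and the mouse build mm9, per the submitters' processing notes. The authors deposited RPKM values for 20188 genes; how DESeq2 entered them is not given in the sources used here. The table holds 309 further columns of other samples, which were not used. Depth was recovered from the steps that 1 read makes in genes of low value, whose values were within 0.001 reads of whole numbers. Of 57 pairs of replicate libraries compared, 0 were identical.

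Differences were tested with limma 3.58.1 in R 4.3.3 (trended, robust empirical Bayes) on log2(RPKM + 1), with Benjamini-Hochberg adjustment over all genes tested and a threshold of 0.05. Genes needed at least 1 RPKM in 6 of the 12 tumours, or in 4 libraries for the cultured comparison and for the tumour difference minus the cultured difference. The cultured fit had the culture series as a term, and the fit of the tumour difference minus the cultured difference did not. Method and fit were tested on simulated data. Tumours come from separate mice; nothing in the labels says whether cultured libraries are separate cultures, so p-values in culture measure only the spread between those libraries. Genes were named as the 15 largest differences in each direction (at least 2-fold, mean of 5 RPKM in the higher line, no overlap), up to 4 members per list with the smallest adjusted p, the first 4 of each list, exceptions to a list, and Hprt. Ldha, Bnip3, Cdkn2a and Grhl2 fall outside this rule. Some genes that the rule names are not reported here. The members and the 61 gene lists were chosen with earlier results of these data known. Promoter sequences came from RefSeq (GRCm38.p6). Alternatives tried were other pseudocounts, filters, scalings and fits, each replicate left out, and single culture series; leaving out the 3 collagen-rich tumours was added after seeing the data.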

Additional observations from a re-analysis of the deposited data

Results flagged for a closer look

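Among the 128 genes named, each of the 6 tumours of a line was compared with its group where the highest value reached 1 RPKM, and 19 values were isolated from the rest of their group by Dixon's criterion. Chance isolates about 1 in 20 groups. The 128 genes make 256 pairs of gene and line, and fewer were examined, since pairs that stayed under 1 RPKM could not be flagged. The 4T07 tumour of mouse 2, 1 of the collagen-rich tumours, held 7 of them, all the highest of their group: Pdpn at 20.6 RPKM, Epb4.1l3 at 1.33, Prrx1 at 6.62, Pmp22 at 18.3, Arg1 at 196, Cdh5 at 17.4 and Twist2 at 1.08. The summed collagen and matrix genes were also highest in this tumour, at 1541 RPKM, and their part in these values was not tested. The 67NR tumour of mouse 5 was the highest for B2m at 2348 RPKM, Psmb8 at 32.3, Cxcl9 at 82.5 and Skil at 11.0. The 67NR tumour of mouse 1 was the highest for Ngp at 1.28 and the lowest for Twist1 at 19.4, and that of mouse 4 the lowest for L1cam at 1.49. In 4T07, mouse 3 was the highest for Cox7b2 at 1.36, Ldha at 630.5 and Skil at 23.2, and mouse 1 for B2m at 4085 and Tgfa at 9.51.

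For 36 of the named genes the tumour difference minus the cultured difference passed limma's test, given here on the log2 scale. It was above 0 for Crabp2 (4.02), Ptgs2 (3.87), Arg1 (3.72), Ngp (3.33), Car9 (3.16), Cdon (2.94), Pdpn (2.44), Bnip3 (2.33), Cd274 (2.32), Tgfbr3 (1.85), Ldha (1.50), Egln3 (1.48), Foxc1 (1.25) and Osr1 (0.76). Of these, Pdpn and Tgfbr3 are lower in 4T07 in both settings, by less in tumours. It was below 0 for Rgs5 (-5.69), Lyz1 (-5.25), Mrc1 (-3.08), Isg15 (-3.01), Gzma (-2.97), Btc (-2.96), Cpa3 (-2.39), Rundc3a (-2.18), Psmb8 (-2.03), Cdh5 (-2.01), S100a4 (-1.84), Tgfa (-1.68), Krt18 (-1.68), Tgfb1 (-1.50), Csf1r (-1.48), Cox7b2 (-1.30), L1cam (-1.25), Kdr (-1.18), Ncr1 (-1.16), Mcm7 (-0.83), Grhl2 (-0.79) and Cdkn1a (-0.75). Of the 36 calls 21 were kept under all 25 alternatives run. Those of Arg1, Bnip3, Cpa3 and Cdkn1a were lost against either culture series alone, those of Cdh5, Cox7b2, Egln3, Grhl2, Mcm7, Osr1 and Pdpn against the isolation cultures alone, and those of Foxc1, Krt18, S100a4, Tgfb1 and Cox7b2 without the collagen-rich tumours. Leaving out a single library ended the call of Tgfb1 and of Bnip3 in 15 of 20 cases each, of Cdkn1a and Egln3 in 12, of Cox7b2 in 11 and of Arg1 in 10. A pseudocount of 0.1 ended the calls of Krt18 and Cox7b2 (limma adjusted p = 0.371 and 0.293) and those of Cdh5 and Egln3. Rescaling by the median ratio ended those of Cdkn1a (limma adjusted p = 0.0881) and Mcm7. Among them Arg1, Ngp, Lyz1, Mrc1, Gzma, Cpa3, Cdh5, Csf1r, Kdr and Ncr1 averaged under 0.2 RPKM in both cultured lines.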

How the results depend on the processing

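The tumour comparison kept its count of calls within 1.5 times under the alternatives run, from 4968 with a filter at 5 RPKM and 5193 with the replicate block to 9098 without a filter, and from 6942 to 7454 when a single tumour was left out. Of 123 named genes tested in tumours 115 kept direction and call throughout. Cdh5 (-1.73, adjusted p = 0.0515), S100a9 (2.59, adjusted p = 0.105) and Mmp12 lost their call with the replicate block, in limma. The animal numbers pair nothing: same-numbered tumours correlated at -0.224, 0.404, -0.0948 and -0.0632 in their deviations from the group means, and none correlated best with its own number. The cultured comparison fell to 2651 calls (1523 higher, 1128 lower) without the culture series and ranged from 5318 to 6037 with a library left out. With its replicate block it gave 4967. The tumour difference minus the cultured one depended on the reference: 3060 calls (1105 above 0) with isolation cultures alone and 4855 (1826 above, 3029 below) with AS alone, and 1684 to 2200 with a library left out. It kept direction and call throughout for 50 of 125 named genes. Some changes that did not pass in the main fit had the other sign and passed under an alternative. With AS alone these were Padi4 (0.72), Sncg (1.42), Spint2 (0.78), Cd80 (0.89) and Ccl2 (-1.91). With isolation alone they were Eda2r (-0.89), Irf9 (0.71), Bst2 (0.68), Ddx60 (0.87) and Ifit3 (1.48), and with a pseudocount of 0.1 Amigo2 (-1.13). The causes were not tested. Without the collagen-rich tumours higher calls among NRF2 targets rose from 2 to 3 and those among T and NK cell genes fell from 3 to 2, while lower calls among checkpoint genes went from 3 to 2. Values well under 1 RPKM rest on few reads.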

Other observations

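Other gene groups were smaller or mixed in the tumours. Of 16 tested genes of the amino acid stress response, which cells switch on when amino acids run short, 10 were higher and 2 lower in 4T07, with a median difference of 0.51, and 4 were higher and 2 lower in culture, with a median of 0.24. S100 proteins and galectins were mostly lower, with 7 of 13 lower and 2 higher in tumours and 7 of 12 lower and 4 higher in culture. Of 12 tested genes of MAPK feedback, which damp signalling from growth factor receptors, 6 were higher and 2 lower, and without the collagen-rich tumours 4 and 2. Chemokine genes had 4 of 19 higher and 7 lower, which became 5 and 5 after rescaling by the median ratio and 6 and 7 of 20 without the collagen-rich tumours. Complement genes had 3 of 12 higher and 5 lower, which became 4 and 4 under the same rescaling. Of 8 tested Notch pathway genes 3 were lower and 0 higher in 4T07 tumours, whereas in culture 6 of 7 were higher and 0 lower, and the tumour difference minus the cultured one was called below 0 for 5 of 10 tested and above 0 for none.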
